A study of Mus musculus with 19 samples.

Results

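Control mouse induced pluripotent stem cells (iPSCs) in this series came as lines of 2 names, B1 and A5, and the 7 libraries of these 4 lines, of 19 libraries and 10 lines in all, were compared with each other. They were chosen by the names in the titles of the samples: 4 libraries of B1 (lines a and b, 2 libraries each) against 3 libraries of A5 (1 of line a, 2 of line b). Both names are wild-type controls. Their fibroblasts were taken at embryonic day 14.5 from embryos of heterozygous OB-Rdb/+ parents and were reprogrammed with the STEMCCA lentivirus, which carries Oct4, Sox2, Klf4 and cMyc. The other lines, used here only as a reference, were 2 db5 and 2 db7 lines, db/db, that is, with the db mutation in both copies of Lepr, which encodes the leptin receptor, and 2 lines in which the mutation had been corrected with CRISPR-Cas9. All lines carry the same reprogramming vector. The design counts the 4 control lines as 4 samples in duplicate, and the labels do not say what the letters a and b or the names stand for, nor whether the duplicate libraries are separate cultures. The p-values measure only the spread between these lines, which may be technical.

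iPSCs are body cells returned by a few transcription factors to a state from which every tissue of the embryo can form. Lines made side by side can differ although they share a genotype. Cells in long culture can gain or lose stretches of chromosomes, and they can keep or lose silencing marks at single genes, at imprinted genes and at genes of the early embryo. A gained stretch of DNA is seen in RNA as many neighbouring genes that are all slightly higher, whereas a silencing mark changes one gene or one small cluster. DNA was not measured here, so the values below are levels of RNA and not copy numbers.

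The libraries held 31318639 to 41203436 estimated counts (median 35268755). Values are CPM (counts scaled to an equal library size), group values are means ± SD over lines (n = 2 for each name), and log2 differences are B1 minus A5 ± SE. The SD over lines leaves out the spread between duplicates of a line. Adjusted p-values were obtained with the quasi-likelihood test of edgeR, with Benjamini-Hochberg correction across 19700 genes, and a gene was called at an adjusted p under 0.05. The lines a and b of a name were near copies of each other: log2 levels of libraries from lines a and b differed with an SD of 0.126 to 0.156 over genes, duplicates of a line by 0.106 to 0.199, and libraries of different names by 0.384 to 0.416. Between line b and line a, edgeR called 0 of 19221 genes (0.0%; 392 at an unadjusted p under 0.05) for B1 and 1 gene (0.0052%; 393 at an unadjusted p under 0.05) for A5. In this fit each library was a sample, so the spread between duplicates of a line entered it, and small differences between lines could be missed. With lines as alike as duplicates, the comparison of B1 with A5 is close to 1 name against 1 name. Genes of the pluripotent state were abundant in every library: Pou5f1, which encodes Oct4, stood at 1489, 1498 and 1539 CPM in the A5 libraries and at 1552, 1473, 1458 and 1485 CPM in the B1 libraries, with overlapping groups (log2 -0.01 ± 0.04, adjusted p = 0.825 by edgeR). Lepr itself was near the floor in both names (0.404 ± 0.0798 CPM in A5, 0.444 ± 0.0176 CPM in B1), and 4 Y-linked genes were under 1 CPM in all 7 libraries.

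B1 and A5 differed at 7651 of 19700 tested genes (38.8%), of which 3761 were higher in B1 and 3890 higher in A5. Outside chromosomes 6 and 15 the count was 6744 of 18001 (37.5%), with 3350 higher in B1 (18.6%) and 3394 higher in A5 (18.9%). Of these, 572 and 603 differed at least 2-fold. On chromosome 6, 444 of 944 tested genes were called, and 352 of them were higher in B1. On chromosome 15, 463 of 755 were called, and 404 of them were higher in A5. The difference between the 2 names of db/db lines, which share no library with this comparison, was of the same order, with 8269 genes called between db7 and db5 (42.0%). Outside chromosomes 3, 6 and 15, 271 genes were called with at least a 2-fold difference both between B1 and A5 and between db7 and db5, which was 24.6% of the former and 20.5% of the latter, where 7.73% of all tested genes there differed that far between db7 and db5 and 6.45% between B1 and A5.

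**Figure D1:**
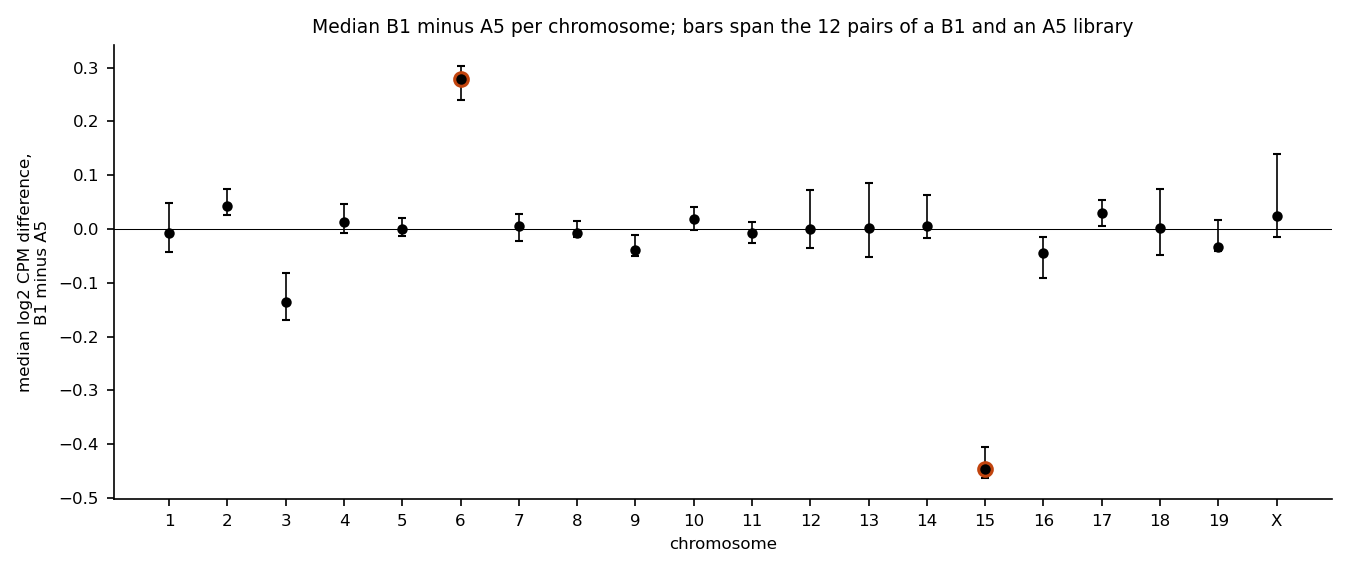
Median log2 difference B1 minus A5 for each chromosome (horizontal axis), over genes averaging 10 CPM or more; bars span the 12 pairs of a B1 and an A5 library. Chromosome 6 lies at 0.279 and chromosome 15 at -0.446, marked in red, and the other 18 lie between -0.135 (chromosome 3) and 0.0427 (chromosome 2).

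Chromosomes 6 and 15 were singled out with their values known, so their medians are given as a description, without a test. The 401 genes of chromosome 6 averaging 10 CPM or more had a median log2 difference of 0.279, with 77.8% of them above 0. Each of the 12 pairs of a B1 and an A5 library gave between 0.240 and 0.303. The 368 genes of chromosome 15 had a median of -0.446, with 15.5% above 0, and the pairs of libraries gave between -0.464 and -0.405. Measured against the median of db5, db7 and the corrected lines, it was B1 that stood apart on chromosome 6, at 0.240 and 0.253 in its 2 lines, where A5 lay at -0.0186 and -0.0211. On chromosome 15 it was A5 that stood apart, at 0.418 and 0.428, where B1 lay at 0.00502 and -0.021. The shift was similar at all levels above 10 CPM: chromosome 15 genes of 10 to 30 CPM had a median of -0.418 and those above 100 CPM one of -0.455, and the same classes on chromosome 6 had medians of 0.278 and 0.274.

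Neither chromosome was shifted along its whole length. A running median over 21 neighbouring genes was taken along every chromosome, and stretches of at least 15 genes with a running median of at least 0.25 in either direction were recorded as shifted runs. These runs were defined from the B1 and A5 values, so their size and sign are a description. On chromosome 6 the proximal part lay near 0, and the run began at Zfp638 and reached the last gene (chr6:83867109-149335663, GRCm38). It held 234 genes with a median of 0.429, of which 93.2% were higher in B1. On chromosome 15 the run also began inside the chromosome, at Eif3h, and reached the end (chr15:51786558-103661681). Its 300 genes had a median of -0.47, and 91.7% of them were higher in A5. A rise in gene dose from 2 to 3 copies would be 0.585 on this scale if RNA followed dose in full.

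The same search found 8 further runs on 7 other chromosomes, so that 10 runs on 9 chromosomes held 1093 genes, 12.1% of those averaging 10 CPM or more. B1 was higher over 67 genes of chromosome 2 (chr2:25926838-30959015, median 0.523, all 67 of the same sign) and lower over 89 genes of chromosome 9 (chr9:65828930-96896147, median -0.609, 85 of the same sign). Chromosome 3 held 2 runs of opposite sign next to each other. B1 was lower over 181 genes (chr3:93692050-137928900, median -0.466) and then higher over the last 33 genes (chr3:142765045-159529955, median 0.679, all 33 of the same sign). A5 was higher over the last 85 genes of chromosome 11 (chr11:115892595-121673153, median -0.437) and the last 56 of chromosome 16 (chr16:72308306-98082450, median -0.373), and lower over the first 16 of chromosome 12 (chr12:3235504-5047394, median 0.671). A stretch of 32 X-linked genes (chrX:106027276-136743690) was higher in B1, with a median of 0.82, but it was the least uniform, with 84.4% of one sign. Of the 10 runs, 5 reached the last expressed gene of their chromosome and 1 the first.

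**Figure D2:**
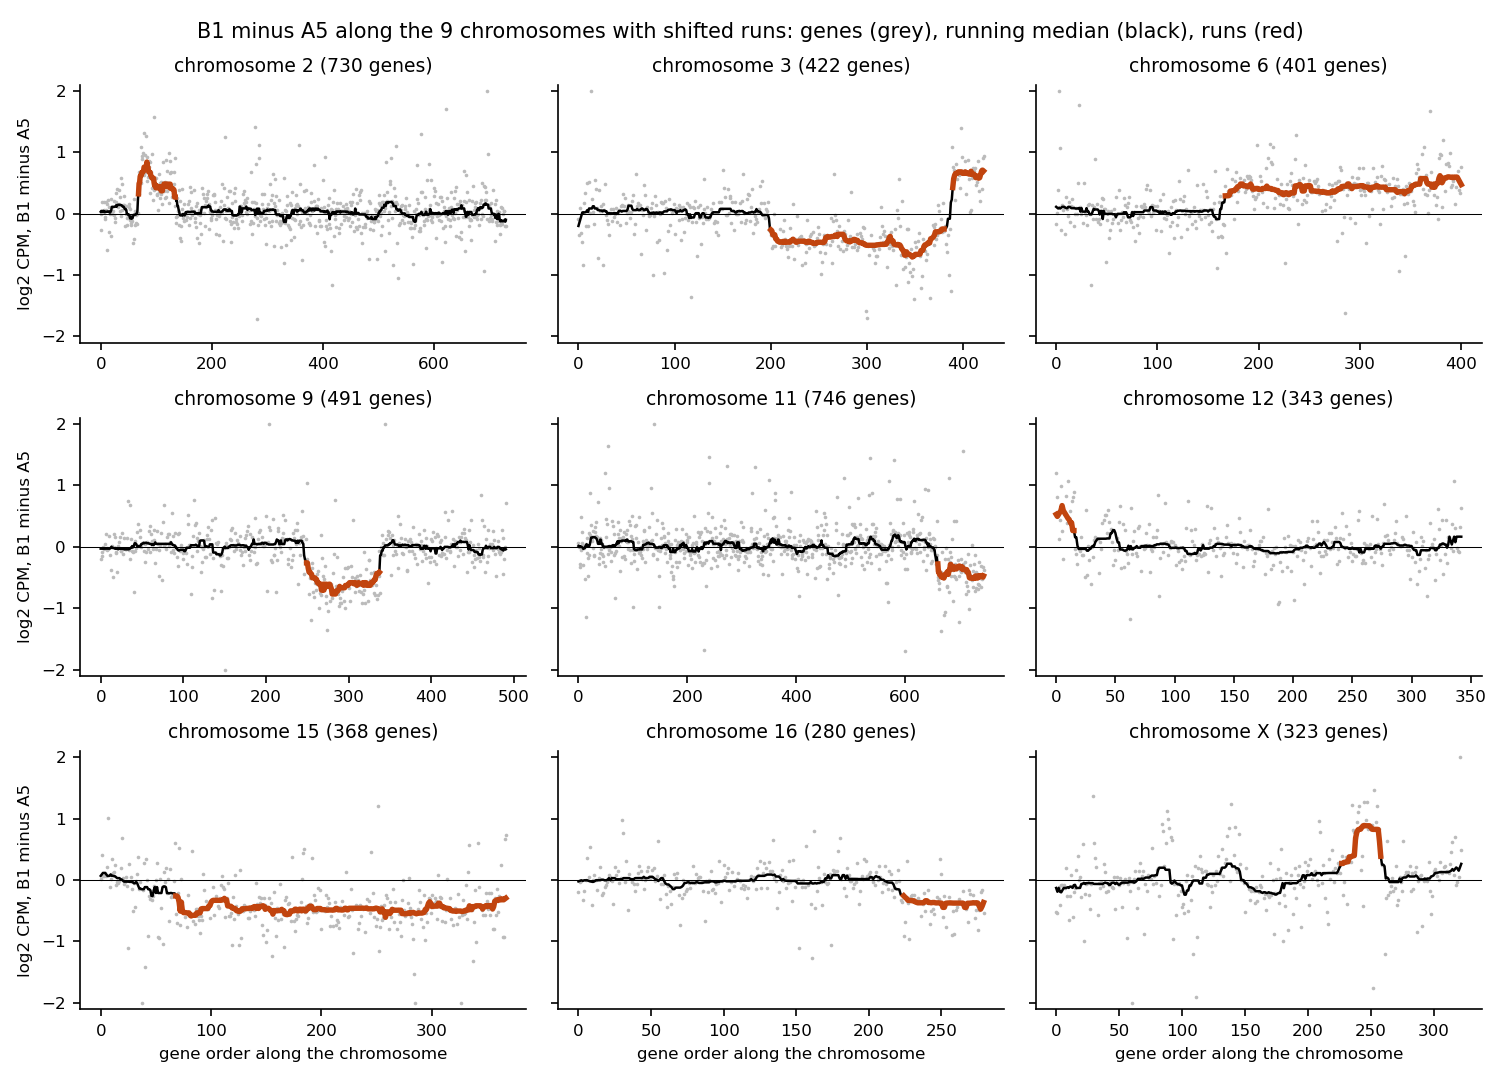
Log2 CPM difference B1 minus A5 (vertical axis; genes beyond 2 or -2 are drawn at those values) against the order of genes along each of 9 chromosomes; grey points are genes averaging 10 CPM or more, the black line is the running median of 21 genes, and red marks the 10 runs. The red begins and ends where the running median passes 0.25 in either direction, so it does not show how sharp the edges are. The proximal part of chromosome 6 is near 0, and its last 234 genes have a median of 0.429. Chromosome 15 is at -0.47 over its last 300, and chromosome 3 goes from -0.466 to 0.679.

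The level of each run in every library, relative to the median of db5, db7 and the corrected lines, showed which name stood apart. On the chromosome 6 run the 4 B1 libraries lay at 0.432 to 0.472 and the 3 A5 libraries at 0.00265 to 0.025. On the chromosome 2 run B1 lay at 0.471 to 0.509 and A5 at -0.0437 to -0.0216, and on the chromosome 9 run B1 lay at -0.699 to -0.589 and A5 at 0.00187 to 0.00641. On the runs of chromosomes 11, 15 and 16 it was A5 that was raised, at 0.385 to 0.473, 0.475 to 0.490 and 0.430 to 0.459, while B1 lay between -0.0668 and 0.0901 on all 3. The chromosome 12 run was low in A5, at -0.887 to -0.779, against -0.201 to -0.0703 in B1. On these 7 runs the libraries of the 2 names did not overlap, and 1 name lay near the other 3.

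Both runs of chromosome 3 were shared with the corrected lines. On the first, B1 lay at -0.588 to -0.529 and the 4 corrected libraries at -0.497 to -0.480, whereas A5 lay at -0.115 to -0.0869, db5 at 0.00539 to 0.0386 and db7 at 0.092 to 0.139. On the second, B1 lay at 0.678 to 0.866 and the corrected libraries at 0.535 to 0.699, whereas A5, db5 and db7 lay between -0.102 and 0.102. B1 is a wild-type control and the corrected lines are labelled as made from db/db cells, and the reason for this resemblance was not tested. The X-linked run was graded over the names: db5 at 0.337 to 0.563, B1 at 0.232 to 0.366, the corrected libraries at -0.0796 to 0.0219, db7 at -0.294 to -0.00562 and A5 at -0.487 to -0.382.

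**Figure D3:**
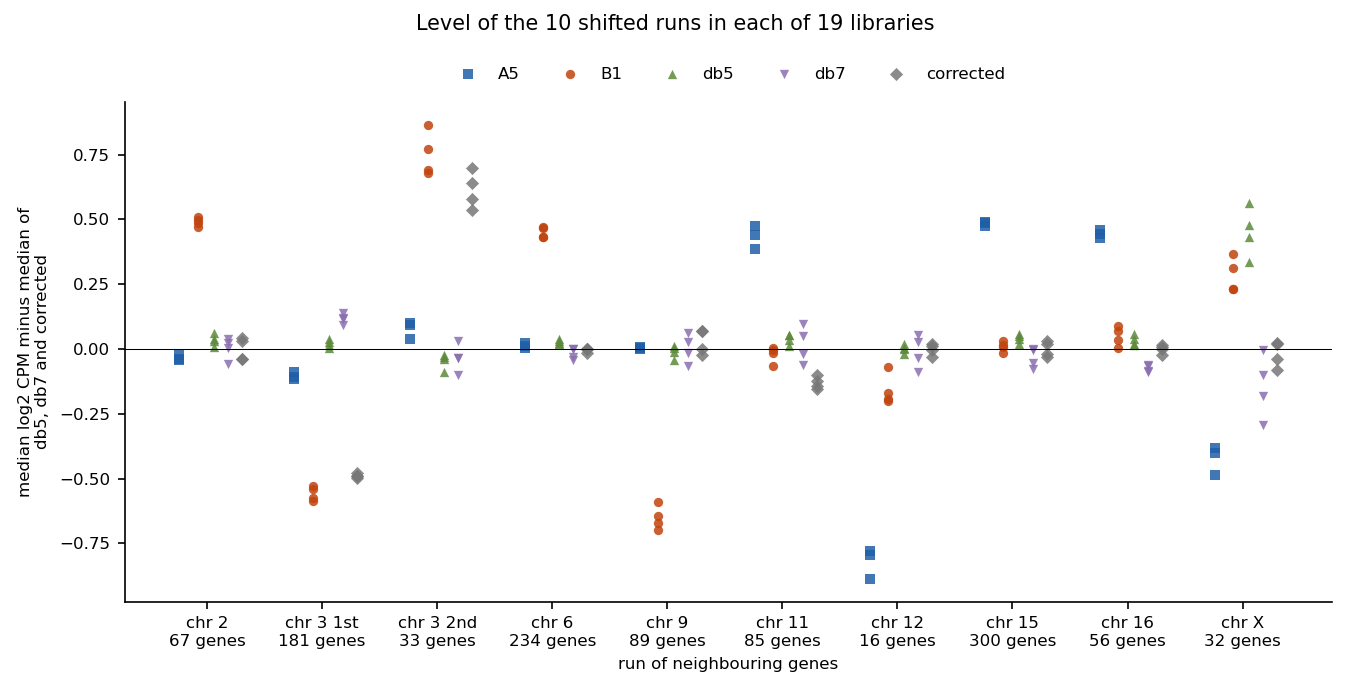
Median log2 level of each of the 10 shifted runs (horizontal axis, with the number of genes) in each of the 19 libraries, relative to the median of db5, db7 and the corrected lines (vertical axis); the last 3 names are therefore near 0 unless they differ from each other. B1 (red) stands apart on chromosomes 2, 6 and 9, A5 (blue) on chromosomes 11, 12, 15 and 16, and on both runs of chromosome 3 the corrected libraries (grey) lie with B1.

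The runs were also sought in each pair of lines with the same letter. Each pair supplied part of the values that defined the runs, and lines a and b are near copies. The search is therefore no independent repeat. Line b of B1 against line b of A5 on its own gave 10 runs on the same 9 chromosomes, with 1076 of their genes in the runs above. Line a against line a gave 10 runs on 8 chromosomes, with 1068 genes in common. In that pair the run of chromosome 11 was split in 2, and the short one of chromosome 12 was not found: its 16 genes had a median of 0.589, but the running median passed the threshold over 14 genes, below the minimum of 15. The same search found 0 runs between line b and line a of B1 and 0 between those of A5, where the running median stayed within -0.0736 to 0.0842 and -0.115 to 0.104. Between db7 and db5 it found 13 runs of 506 genes, of which 171 were also in a run of B1 against A5. Inside the runs 64.7% of tested genes were called (1439 of 2224), against 35.5% outside them (6212 of 17476). The first share was fixed by how the runs were chosen. On chromosome 6, 272 of the 301 called genes inside the run were higher in B1, whereas outside the run 80 were higher in B1 and 63 in A5. On chromosome 15, 362 of the 391 inside the run were higher in A5, and outside it 30 were higher in B1 and 42 in A5. On the other chromosomes and outside the runs, 5997 of 16872 genes were called (35.5%), 3136 higher in B1 and 2861 higher in A5, so most called genes lay in no run.

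Chromosome 6 carried abundant housekeeping genes and several regulators of pluripotency inside the run. Of those named next, Cct7, Hnrnpf, Pcbp1, Rpl32 and Gapdh were picked among called genes higher in B1, so their direction was fixed by choice. Nanog, a core transcription factor of the pluripotent state, stood at 470, 471 and 483 CPM in the A5 libraries and at 623, 593, 631 and 604 CPM in the B1 libraries, without overlap (log2 0.37 ± 0.04, adjusted p = 1.52e-05 by edgeR). Its neighbour Phc1, a Polycomb protein, stood at 443 ± 3.61 CPM in A5 and 627 ± 11.2 CPM in B1. Cct7, a subunit of the TRiC chaperonin that folds actin and tubulin, stood at 712, 748 and 743 CPM in A5 and at 1105, 1042, 1108 and 1036 CPM in B1. The RNA-binding proteins Hnrnpf (1231 ± 30.2 against 1747 ± 26.1 CPM) and Pcbp1 (522 ± 0.387 against 764 ± 1.83 CPM), the ribosomal protein Rpl32 (954 ± 0.461 against 1351 ± 7.21 CPM) and the replication helicase subunit Mcm2 (442 ± 3.15 against 586 ± 15.04 CPM) were higher in B1 as well. For these 7 genes B1 was also above the means of db5, db7 and the corrected lines. Gapdh, a glycolytic enzyme often used as a loading control, was at 4831, 4570 and 4633 CPM in A5 and at 5860, 5755, 5256 and 5992 CPM in B1 (log2 0.27 ± 0.07, adjusted p = 0.00738 by edgeR), but at 6977 CPM in db5. Its call was lost without line a of B1 (adjusted p = 0.057) or without line b of A5 (adjusted p = 0.0634).

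Some genes of chromosome 6 differed far beyond the shift of the run or against it. Cdkn1b, which encodes the cell cycle inhibitor p27, was at 15.04 ± 0.66 CPM in A5 and 29.6 ± 0.323 CPM in B1. Mitf, a transcription factor of pigment cells, was at 21.2 ± 1.07 and 51.8 ± 0.0916 CPM, and Eps8, an actin-binding signalling adaptor, at 11.6 ± 0.879 and 36.9 ± 1.65 CPM. Rassf4, a Ras-association domain protein, went the other way, at 46.2, 46.2 and 49.6 CPM in A5 and at 16.4, 15.3, 15.5 and 13.9 CPM in B1, and both names were at or above db5 (3.58 CPM) and db7 (3.46 CPM). Vwf, the von Willebrand factor of endothelial cells, was also higher in A5 (28.1 ± 0.539 against 14.8 ± 0.491 CPM). Among the named genes of chromosome 6, the largest differences lay outside the run, in the proximal part of the chromosome. Peg10, an imprinted gene derived from a retrotransposon, stood at 51.9, 50.7 and 52.1 CPM in A5 and at 249, 235, 253 and 231 CPM in B1 (log2 2.23 ± 0.08, adjusted p = 1.36e-08 by edgeR), with db5 at 145, db7 at 174 and the corrected lines at 323 CPM. Aass, an enzyme of lysine breakdown, was at 16.1 ± 0.272 CPM in A5 and 54.8 ± 0.914 CPM in B1. Ccdc136 (18.4 ± 1.66 against 8.22 ± 0.352 CPM), Scrn1 (7.90 ± 0.903 against 3.87 ± 0.0482 CPM) and Stra8, which acts at the entry into meiosis (8.38 ± 0.336 against 4.37 ± 0.106 CPM), were higher in A5 and also lay outside the run.

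On chromosome 15 the run held genes of translation, sterol synthesis and the cytoskeleton. Of those named next, Eif4b, Rpl8, Tuba1b, Rpl3, Hnrnpa1 and Pabpc1 were picked among called genes higher in A5, so their direction was fixed by choice. Eif4b, a factor of translation initiation, stood at 1317, 1281 and 1268 CPM in A5 and at 814, 803, 820 and 781 CPM in B1 (log2 -0.69 ± 0.04, adjusted p = 1.62e-07 by edgeR), but db5 was at 1370 CPM. Rpl8, a ribosomal protein, was at 2611 ± 90.0 CPM in A5 and 1850 ± 4.80 CPM in B1, and the tubulin Tuba1b at 2479 ± 29.5 and 2014 ± 46.7 CPM. Srebf2, the transcription factor that switches on cholesterol synthesis, was at 282, 283 and 273 CPM in A5 and at 220, 195, 202 and 199 CPM in B1. Sqle, squalene epoxidase of the same pathway, was at 96.5, 93.6 and 87.4 CPM in A5 and at 52.2, 48.6, 55.6 and 50.3 CPM in B1. For Rpl8, Tuba1b, Srebf2 and Sqle, A5 was above the means of the other 3 names, and neither library group overlapped the other. Other abundant genes of the chromosome moved little: the log2 differences were -0.13 ± 0.04 for Rpl3, -0.14 ± 0.04 for Hnrnpa1 and -0.12 ± 0.04 for Pabpc1, and each of the 3 calls was lost whichever control line was left out. Myc, one of the reprogramming factors, lies in the run too, at 646, 633 and 599 CPM in A5 and at 602, 554, 544 and 560 CPM in B1. Its call (adjusted p = 0.0424 by edgeR) was lost whichever control line was left out, the groups overlapped, and the table cannot tell the cell's own Myc from the vector's.

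Differences far beyond the run were again found on both parts of chromosome 15. Slc38a4, an imprinted amino acid transporter, stood at 216, 217 and 220 CPM in A5 and at 78.3, 74.3, 76.5 and 72.7 CPM in B1 (log2 -1.53 ± 0.04, adjusted p = 1.65e-09 by edgeR), and db7 (216 CPM) was as high as A5. Col2a1, the collagen of cartilage, was at 16.2 ± 0.0574 CPM in A5 and 3.49 ± 0.405 CPM in B1, Pou6f1, a POU-domain transcription factor, at 20.8 ± 0.428 and 4.44 ± 0.0462 CPM, and Parp10 at 7.42 ± 0.0747 and 1.56 ± 0.315 CPM. The keratin Krt8 was at 22.7 ± 0.649 and 9.09 ± 1.09 CPM. Smc1b, a cohesin subunit of meiosis, went against the run, at 17.6, 15.8 and 15.7 CPM in A5 and at 37.9, 38.7, 39.5 and 36.9 CPM in B1. Proximal to the run, Sdc2, the cell surface proteoglycan syndecan-2, stood at 32.3, 29.4 and 28.3 CPM in A5 and at 4.46, 5.29, 3.86 and 5.27 CPM in B1, and the other 3 names lay at 28.2 to 41.1 CPM. Npr3, the clearance receptor of natriuretic peptides, was almost silent in A5, at 0.521, 0.548 and 0.419 CPM, and stood at 19.3, 17.0, 18.4 and 16.2 CPM in B1 (log2 5.14 ± 0.12, adjusted p = 7.67e-10 by edgeR), with 4.30 to 18.4 CPM in the other names. Lifr, the receptor of the self-renewal factor LIF, was at 20.8 ± 0.898 CPM in A5 and 41.8 ± 0.134 CPM in B1. Rpl30, a ribosomal protein, stood at 499, 523 and 517 CPM in A5 and at 188, 184, 188 and 203 CPM in B1 (log2 -1.42 ± 0.05), against 446 to 520 CPM in the other names. Ribosomal protein genes have many processed copies in the genome between which estimated counts can be split, so this value is uncertain.

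Named genes in the other 8 runs mostly followed the sign of the run, which such genes helped to define. Rpl7a on chromosome 2 stood at 1464, 1452 and 1438 CPM in A5 and at 2833, 2731, 2630 and 2781 CPM in B1 (log2 0.91 ± 0.04, adjusted p = 4.48e-08 by edgeR), and the other names lay at 1206 to 1491 CPM, with the same reserve about its copies. On the first run of chromosome 3, Nras, a Ras protein of growth factor signalling, was at 155 ± 5.82 CPM in A5 and 107 ± 0.0383 CPM in B1, with the corrected lines at 96.4 CPM and db5 and db7 at 161 and 181 CPM. The ribosomal protein Rpl34 followed the same order (544 ± 14.4 CPM in A5, 358 ± 4.47 CPM in B1, 297 CPM in the corrected lines), as did the lactate transporter Slc16a1 (220 ± 6.13, 165 ± 2.95 and 144 CPM). On the second, Ccn1, a matricellular protein, was at 88.6 ± 3.19 CPM in A5 and 119 ± 2.35 CPM in B1, with 184 CPM in the corrected lines. On chromosome 9, Dppa5a, an RNA-binding protein typical of pluripotent cells, stood at 2070, 2197 and 2231 CPM in A5 and at 1444, 1283, 1544 and 1272 CPM in B1, and Ccnb2, a cyclin of mitosis, at 117 ± 0.349 and 84.2 ± 0.574 CPM. Birc5, which encodes survivin, lies in the run of chromosome 11 and stood at 162, 156 and 158 CPM in A5 and at 115, 111, 118 and 116 CPM in B1, with 92.2 to 114 CPM in the other names. The count given next covers every run, not only these 8. It takes in genes picked among called genes in the direction of their chromosome's median, so the agreement was partly fixed by choice. Of the 53 named genes inside a run, 47 moved in its direction. Socs3, the feedback inhibitor of LIF and leptin signalling, was 1 of the 6 that did not: it lies in the chromosome 11 run but was higher in B1, at 427, 290, 397 and 294 CPM, than in A5, at 275, 286 and 213 CPM. The first duplicates of both B1 lines were the high ones.

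Away from both chromosomes, 2 named genes of chromosome 8 were on in one name and off in the other, which was taken as all libraries of a name under 1 CPM and all of the other above 5 CPM. Ushbp1, whose protein binds the scaffold protein harmonin (chr8:71384272-71395802), stood at 0.223, 0.247 and 0.0645 CPM in the A5 libraries and at 17.8, 18.99, 16.9 and 19.6 CPM in the B1 libraries. The difference was 6.60 ± 0.21 on the log2 scale (adjusted p = 3.69e-09 by edgeR), and db5, db7 and the corrected lines lay at 0.189 to 0.279 CPM, so B1 was alone in its level. Ncan, which encodes neurocan, a proteoglycan of the brain's extracellular matrix (chr8:70093085-70120873), lay 1263 kb away and went the other way. It stood at 7.17, 7.81 and 6.87 CPM in A5 and at 0.886, 0.717, 0.714 and 0.855 CPM in B1 (log2 -3.19 ± 0.15, adjusted p = 5.52e-08 by edgeR), with 8.53 CPM in db5, 1.43 CPM in db7 and 2.37 CPM in the corrected lines. Chromosome 8 had no shifted run. Among the 10 tested genes on each side of Ushbp1, 5 were called higher in B1 and 5 higher in A5, and for Ncan the counts were 2 and 7. The log2 differences of these neighbours ran from -5.76 to 1.34 for Ushbp1 and from -0.77 to 0.948 for Ncan. The relation of the neighbour at -5.76 to the level of Ushbp1 was not tested.

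The sequences before their start sites are shown because silencing in such cells often acts where CG pairs, the target of DNA methylation, are dense. The windows are from RefSeq (GRCm38.p6, both on the minus strand, 250 bases up to the start site), and capitals mark each CG. For Ushbp1 the window is chr8:71395802-71396051 and for Ncan chr8:70120845-70121094.
Ushbp1: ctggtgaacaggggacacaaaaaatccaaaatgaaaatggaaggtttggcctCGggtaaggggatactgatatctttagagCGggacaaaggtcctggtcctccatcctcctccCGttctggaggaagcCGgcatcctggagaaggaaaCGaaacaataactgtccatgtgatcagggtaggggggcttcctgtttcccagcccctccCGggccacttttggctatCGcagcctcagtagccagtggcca
Ncan: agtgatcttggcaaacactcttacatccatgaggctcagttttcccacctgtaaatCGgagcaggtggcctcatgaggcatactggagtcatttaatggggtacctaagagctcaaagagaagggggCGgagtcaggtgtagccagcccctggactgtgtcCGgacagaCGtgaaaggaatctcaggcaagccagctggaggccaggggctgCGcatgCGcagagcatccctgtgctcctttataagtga
With the 50 bases after the start site, the windows held 7 CG pairs for Ushbp1 and 9 for Ncan, against a median of 7 and quartiles of 3 and 20 over 32851 promoter windows of the same length. Of these, 48.6% held more than Ushbp1 and 43.5% more than Ncan, so neither window was rich in CG. DNA methylation was not measured.

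The other named genes with the largest rises in B1 outside chromosomes 6 and 15 were of several kinds. They were ranked among called genes with at least 5 CPM in the higher name and no overlap of libraries. Predicted genes and pseudogenes were left out. Of all tested genes there, 38 were called at least 8-fold higher in B1 and 42 in A5. Mid1, a microtubule-bound ubiquitin ligase at the edge of the pseudoautosomal region, stood at 1.91, 2.47 and 2.42 CPM in A5 and at 41.6, 49.2, 40.3 and 47.1 CPM in B1 (log2 4.31 ± 0.09), and db5 (41 CPM) was as high as B1. Its copies on the sex chromosomes make its counts uncertain. Igsf21, an adhesion protein of the immunoglobulin family, was at 1.95 ± 0.0942 CPM in A5 and 13.9 ± 1.53 CPM in B1. Mras, a small GTPase of the Ras family, stood at 7.22, 7.37 and 4.26 CPM in A5 and at 40.9, 34.4, 39.8 and 33.1 CPM in B1, with at most 9.45 CPM in the other names. Car2, a carbonic anhydrase, was at 18.7 ± 0.297 and 89.8 ± 0.202 CPM, the cytokine receptor Il6ra at 4.598 ± 0.324 and 19.6 ± 0.685 CPM, and the cadherin Cdh4 at 10.5 ± 1.57 and 42.1 ± 1.01 CPM. The others were Ccdc7a, Islr2, Cntln, Dpp6, Hydin, Dnajc6, Khdc3 and Scn3a, with log2 differences of 2.02 to 2.48. Khdc3, an RNA-binding protein of the egg, lies in the chromosome 9 run, which was lower in B1.

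Among the largest falls, ranked in the same way, were homeobox genes of the early embryo. Obox6 stood at 10.7, 9.86 and 9.64 CPM in A5 and at 1.496, 1.49, 1.31 and 1.25 CPM in B1 (log2 -2.88 ± 0.09, adjusted p = 3.29e-09 by edgeR), and the other names were higher than either (27.1 to 49.3 CPM). Duxbl1 was at 4.86, 6.85 and 6.48 CPM in A5 and at 0.582, 0, 0.8286 and 0 CPM in B1, and its near copy Duxbl2 and the neighbouring Cphx1 were lower in B1 as well (log2 -2.71 ± 0.34 and -2.19 ± 0.57). The counts of these near-identical genes are uncertain, and the call of Cphx1 was lost without either B1 line (adjusted p = 0.0691 and 0.0657). Gbe1, the glycogen branching enzyme, stood at 23.5, 23.4 and 23.0 CPM in A5 and at 3.05, 3.38, 3.20 and 3.59 CPM in B1, and here A5 stood apart from the other names (3.12 to 6.13 CPM). Klhl13, an X-linked adaptor of a cullin ubiquitin ligase, was abundant, at 1263, 1220 and 1178 CPM in A5 and at 286, 264, 297 and 254 CPM in B1 (log2 -2.17 ± 0.05, adjusted p = 7.67e-10 by edgeR), with 352 to 507 CPM in the other names. Ush1c, which encodes harmonin, was at 9.52 ± 0.650 CPM in A5 and 2.02 ± 0.0692 CPM in B1. The others were Cyyr1, Tmprss5, Sema3e, Tbc1d9, Them5, Acot11 and Cdkl4, with log2 differences of -2.73 to -1.95, and of these Cyyr1 and Them5 lie in the runs of chromosomes 16 and 3.

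**Figure D4:**
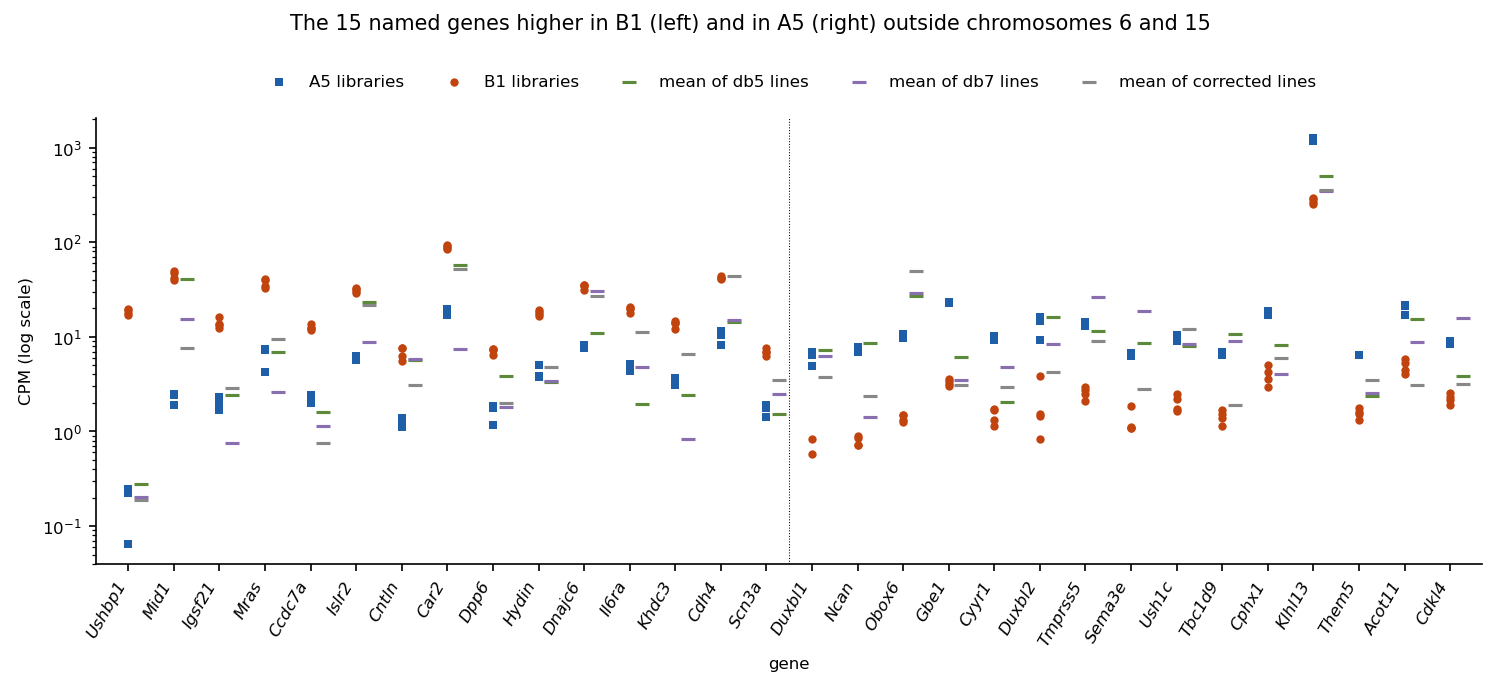
CPM (log scale) of 15 named genes higher in B1 (left of the dotted line) and 15 higher in A5 (right) outside chromosomes 6 and 15. Each A5 (blue) and B1 (red) library is shown, with the means of the db5, db7 and corrected lines as dashes. The 30 genes are the largest changes among called genes with at least 5 CPM in the higher name and no overlap of libraries. Predicted genes and pseudogenes were left out. No A5 library overlaps a B1 library for any of the 30 genes, which was a condition of their choice. Ushbp1 is near 0.2 CPM in every name but B1. The 2 B1 libraries with a level of 0 for Duxbl1 cannot be drawn on a log scale.

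Taking all genes with at least a 2-fold difference outside chromosomes 6 and 15, B1 was the name farther from the median of db5, db7 and the corrected lines for 397 of the 572 that were higher in B1 and for 388 of the 603 that were higher in A5. A5 was the farther one for the other 175 and 215.

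Gene lists of cell states, signalling and metabolism are described by their counts outside chromosomes 6 and 15, to be read against the 18.6% and 18.9% of all tested genes that were higher in B1 and in A5. Among 21 genes of naive pluripotency, the state of the early inner cell mass, 10 were higher in B1 and 3 higher in A5 (median log2 0.11, against -0.00050 over all tested genes there). Tfcp2l1, a transcription factor of this state downstream of LIF, stood at 282, 282 and 263 CPM in A5 and at 459, 405, 470 and 405 CPM in B1 (log2 0.65 ± 0.07, adjusted p = 1.93e-05 by edgeR), and Klf5 at 165 ± 9.47 and 230 ± 1.66 CPM. Summed levels, here and below, take in the tested members of a list on all chromosomes. For this list the first duplicates stood at 5760 and 5740 CPM in A5 and at 6340 and 6250 CPM in B1. In the second duplicates the sums were 5480 CPM in A5 and 5710 and 5750 CPM in B1. B1 was thus higher at each duplicate number, and the groups overlapped only across the numbers. The duplicate moved with the list, and its part in the counts was not tested. Klf4, also carried by the vector, differed less (570 ± 26.3 against 670 ± 16.9 CPM). Nr0b1, an X-linked repressor of the same network, went the other way, at 378, 394 and 389 CPM in A5 and at 201, 189, 194 and 194 CPM in B1. Of 15 core pluripotency genes, 3 were higher in B1 and 4 higher in A5. Dnmt3l, a cofactor of DNA methylation, was at 199 ± 8.67 and 313 ± 2.997 CPM, and Sox2 at 502 ± 1.07 and 439 ± 7.38 CPM, a call that was lost without line b of A5 (adjusted p = 0.0531) or line b of B1 (adjusted p = 0.0764).

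Each of 4 signalling lists had more members higher in B1 than in A5, by 8 and 5 of 25 genes for leptin, LIF and STAT3 signalling and by the counts given next for the others. Of 30 genes of the Nodal and BMP pathways, secreted signals that pattern the early embryo, 14 were higher in B1 and 6 higher in A5. Lefty2, a secreted Nodal inhibitor and target, stood at 408, 419 and 382 CPM in A5 and at 864, 813, 848 and 795 CPM in B1 (log2 1.03 ± 0.04, adjusted p = 1.51e-08 by edgeR), and the ligands Bmp4 (4.89 ± 0.628 against 11.7 ± 0.843 CPM) and Inhbb (38.3 ± 0.958 against 61.0 ± 0.0937 CPM) were higher too. The BMP targets Id1 (16.3 ± 0.111 against 35.04 ± 0.742 CPM) and Id2 (41.9 ± 2.39 against 18.5 ± 0.752 CPM) moved in opposite directions. In the B1 libraries Id1 stood at 44.0, 26.4, 41.7 and 27.4 CPM, with the first duplicates high. Of 32 FGF-ERK genes, 14 were higher in B1 and 7 in A5. Etv4, a target of ERK signalling, stood at 73.8, 69.8 and 63.8 CPM in A5 and at 152, 151, 145 and 147 CPM in B1, the receptor Fgfr1 at 65.9 ± 0.239 and 99.8 ± 0.0679 CPM, and the ligand Fgf15 at 7.12 ± 0.241 and 1.93 ± 0.0416 CPM. Of 16 immediate early genes, the first responders to growth factors and handling, 7 were higher in B1 and 1 in A5, among them Zfp36 (54.6 ± 3.94 against 113 ± 5.74 CPM) and Junb (117 ± 7.96 against 192 ± 1.66 CPM). The summed level of that list was 3580 and 3360 CPM in the first duplicates of B1, against 2980 and 2960 CPM in those of A5. In the second duplicates it was 2980 and 3040 CPM in B1 and 2580 CPM in A5. B1 was thus higher at each duplicate number. The duplicate moved with the list as well, and its part in the result was not tested.

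Of 35 Wnt genes, 10 were higher in B1 and 8 in A5. Ccnd1, which encodes cyclin D1, a driver of entry into the cell cycle, stood at 33.6, 31.3 and 32.3 CPM in A5 and at 94.8, 97.0, 90.0 and 101 CPM in B1 (log2 1.55 ± 0.04, adjusted p = 1.65e-09 by edgeR), and the other names were near A5 (31.5 to 41.1 CPM). The receptor Fzd7 stood at 93.7, 92.3 and 99.2 CPM in A5 and at 34.4, 37.4, 34.3 and 38.3 CPM in B1, below all other names (107 to 200 CPM). Cdkn1a, the cell cycle inhibitor p21 and a target of p53, was at 91.2, 95.3 and 103 CPM in A5 and at 48.2, 51.0, 45.6 and 50.3 CPM in B1, while the p53 pathway as a list was divided (6 of 26 higher in B1, 7 higher in A5). Among 31 genes of S phase and mitosis, 8 were higher in B1 and 9 in A5.

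Cholesterol synthesis and glycolysis had more members higher in A5. Of 24 genes of cholesterol synthesis outside both chromosomes, 11 were higher in A5 and 1 in B1 (median log2 -0.16), and none of the 24 lies in a run. The differences were small, for example 54.7 ± 1.52 against 45.8 ± 0.552 CPM for Lss, the enzyme that closes the sterol rings, and 15.7 ± 0.0101 against 10.7 ± 0.666 CPM for Stard4, a sterol carrier. The pathway's activator Srebf2 and its enzyme Sqle were higher in A5 within the run of chromosome 15, as given above. Of 19 genes of glycolysis, 10 were higher in A5 and 5 in B1, and without the runs the counts were 7 and 5 of 16. The sums of the glycolysis list overlapped, at 21800 to 22700 CPM in A5 and 20700 to 22000 CPM in B1. Those of the cholesterol list were lower in the second duplicates of both names: 1770 and 1740 CPM in the first duplicates of B1 and 1610 and 1600 CPM in the second, against 1940 and 1950 CPM in the first of A5 and 1800 CPM in its only second. The groups did not overlap, and the part of the duplicate in the counts was not tested. Slc16a3, a lactate exporter in the chromosome 11 run, was at 141 ± 7.83 CPM in A5 and 92.5 ± 2.44 CPM in B1. Of 73 ribosomal protein genes, 3 were higher in B1 and 4 in A5 (9.59% called), and of 33 replication-dependent histone genes 0 were called by edgeR (1 at an unadjusted p under 0.05).

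In imprinted genes only the copy from one parent is normally active. Of 38 outside both chromosomes, 8 were higher in B1 and 13 higher in A5, and none lies in a run. The members named next were chosen after their values were seen. Around the imprinted domain of distal chromosome 7, Igf2, a fetal growth factor, Cdkn1c, which encodes the cell cycle inhibitor p57, Phlda2 and Slc22a18 were all higher in B1, with log2 differences of 0.76, 0.95, 0.96 and 1.03, whereas Ascl2 of the same region was higher in A5 (-0.60) and H19 and Kcnq1ot1 were not called (-0.14 and -0.23). In the Snrpn domain of the same chromosome Snrpn, Ndn, Mkrn3 and Magel2 were higher in A5, at -0.42, -0.38, -0.63 and -1.15, whereas Peg12 was higher in B1 (0.63). In the Dlk1-Dio3 domain of chromosome 12 the noncoding RNA Meg3 was at 69.0 ± 3.17 CPM in A5 and 47.9 ± 2.23 CPM in B1, and Rian and Dio3 were also higher in A5 (log2 -0.17 and -0.89), while Dlk1 and Mirg were not called (0.25 and -0.28). On proximal chromosome 6, the neighbours Peg10, Sgce and Ppp1r9a were higher in B1, at 2.23, 1.25 and 1.08, and lie outside the run.

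Markers of early mesoderm were low in both names. Of 22 genes of mesoderm, 5 were higher in B1 (22.7%, near the 18.6% of all tested genes) and 0 in A5. The list summed to 28.6 to 31.4 CPM in the A5 libraries and 44.9 to 49.6 CPM in the B1 libraries. That sum takes in 2 genes of chromosome 6, of which 1 was called higher in B1. The called members included Bmp4 and Tbx20, a transcription factor of the heart (2.69 ± 0.159 against 7.01 ± 0.0107 CPM). The defining gene T and Mesp1 were too low to be tested. Of 22 neural progenitor genes, 10 were higher in B1 and 5 in A5: Sox1, an early neural transcription factor, was at 10.9 ± 0.674 and 20.9 ± 0.475 CPM, Meis2 at 4.83 ± 0.162 and 10.4 ± 0.263 CPM, and the Notch ligand Dll1 at 9.22 ± 0.0093 and 2.96 ± 0.2501 CPM. Pax6, added after its values were seen, was higher in A5 as well (2.43 against 1.58 CPM, adjusted p = 0.00691 by edgeR). The sums of the list were higher in B1 at each duplicate number and overlapped only across the numbers. First duplicates stood at 307 and 309 CPM in A5 and at 330 and 317 CPM in B1, and second ones at 326 CPM in A5 and 370 and 371 CPM in B1. Of 27 neuronal genes, 10 were higher in B1, such as Elavl3 (3.68 ± 0.481 against 8.998 ± 0.245 CPM), and 5 in A5, such as Map2 (12.6 ± 0.727 against 4.88 ± 0.255 CPM). Of 33 fibroblast genes, the cells of origin, 11 were higher in B1 and 3 in A5, and without the runs the counts were 8 and 3 of 29. Ccn1, given above in a run of chromosome 3, is among those higher in B1. The summed level was lower in B1 at each duplicate number. It was 2680 and 2660 CPM in the first duplicates of A5 against 2350 and 2260 CPM in those of B1. In the second duplicates it was 2930 CPM in A5 against 2890 and 2840 CPM in B1. Col1a1, the main collagen of fibroblasts, was not called (130 ± 18.1 against 156 ± 2.66 CPM). Its libraries stood at 117, 118 and 171 CPM in A5 and at 114, 204, 104 and 203 CPM in B1, with the second duplicates high. Ccn2 was higher in A5 (254 ± 0.0685 against 148 ± 0.517 CPM). In bulk RNA, more cells of a type and more RNA per cell cannot be told apart.

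**Figure D5:**
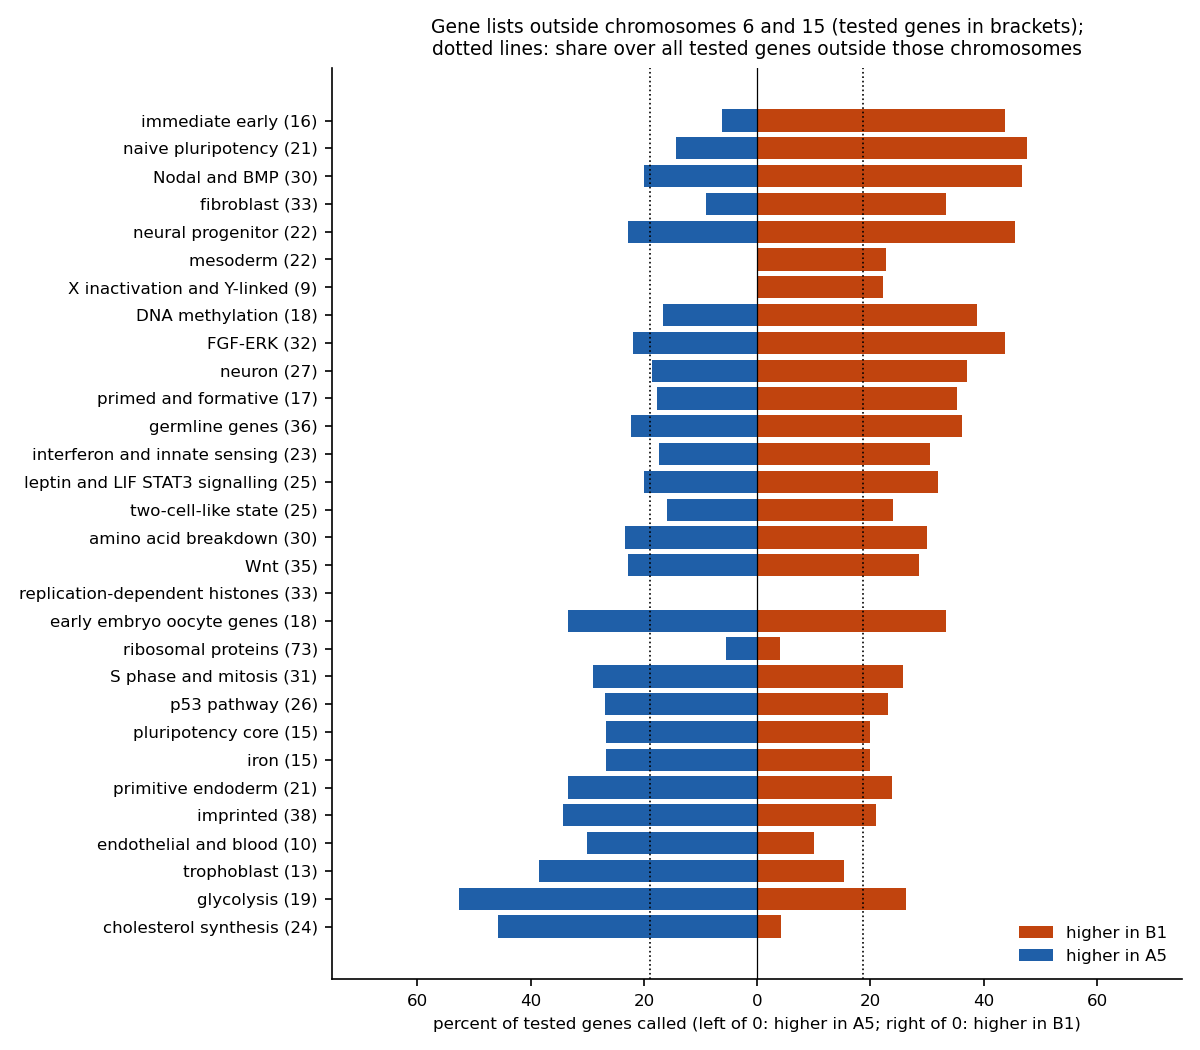
Share of the tested genes of each of 30 lists (number in brackets) outside chromosomes 6 and 15 that were called higher in B1 (red, to the right) or higher in A5 (blue, to the left), with the shares over all tested genes there, 18.6% and 18.9%, as dotted lines. Immediate early, naive pluripotency and Nodal and BMP genes lean to B1 (7, 10 and 14 genes), cholesterol synthesis and glycolysis lean to A5 (11 and 10 genes), and histone genes show no call.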

How the data were processed

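RNA of 19 iPSC libraries was sequenced. The authors deposited estimated counts per gene, and kallisto and GRCm38 are named in the submitters' processing notes, without versions. Counts were rounded, summed per line, filtered (filterByExpr, 19700 of 52143 genes), scaled by TMM and fitted for the 5 names at once with edgeR 4.0.16 in R 4.3.3, then adjusted by Benjamini-Hochberg. Names and positions came from GENCODE M21 (99.38% of counts). Log2 CPM had a prior count of 2. The fit was tested on simulated data of 19199 genes for this comparison. Genes changed by 0.58, 1 and 2 on the log2 scale numbered 67, 67 and 66, of which 49.3%, 71.6% and 87.9% were recovered. Unchanged genes made up 5.44% of the simulated calls. Far fewer genes were changed than the 38.8% called here, so these shares do not give the recovery in the real comparison.

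Named genes were the 15 largest called changes each way outside chromosomes 6 and 15 with at least 5 CPM in the higher name and no overlap of libraries (predicted genes and pseudogenes left out). On chromosomes 6 and 15 each they were the 6 most abundant called genes in the direction of the chromosome's median. The 4 largest changes each way there, under the same conditions as elsewhere, were added, with fixed genes and up to 4 per list. Members, lists and chromosomes were chosen with earlier results of these data known. Each of the 4 control lines is left out in turn among the alternatives. The precision is limited by 2 lines per name.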

Additional observations from a re-analysis of the deposited data

Results flagged for a closer look

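Of 149 values tested in the 4 B1 libraries (139 genes and 10 runs), 3 had a library far from the other 3 by Dixon's test, where chance gives about 1 in 20. Dpp6 was low in the second library of line b of B1, at 6.41 CPM, where the others lay at 7.29 to 7.46 CPM. Sema3e was high in the first library of line a, at 1.86 CPM against 1.07 to 1.11 CPM. Pecam1, an adhesion protein, was high in the same library, at 131 CPM against 123 to 124 CPM. All 3 genes kept their call when a line was left out.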

How the results depend on the processing

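The count of called genes outside chromosomes 6 and 15 (6744) was 4861 to 5157 when 1 of the 4 control lines was left out, where the lone line is assumed to vary like the others. Across the other settings it was 5330 (first duplicates only) to 7963 (only the 4 control lines). Chromosome 6 gave 361 to 374 calls and chromosome 15 gave 396 to 415 without a line. No call count moved by 1.5 times, and no named gene changed direction. With the duplicate number as a replicate block the counts were 7172, 461 and 472, and without the block on the same libraries (added after seeing the data) 6716, 439 and 458. With the first letter as a replicate block they were 6105, 418 and 445. The differences between first and second duplicates correlated at -0.0501 to 0.613 in 18 pairs of lines, 15 of them over 0.1. Duplicates of the same number thus partly moved together over lines. The labels do not say what the number stands for. The main fit sums the duplicates of a line and has no term for it, and the reason for the correlations was not tested. Scaling by library size alone moved the median of all genes by 0.035 and gave chromosome medians of 0.315 (chromosome 6) and -0.41 (chromosome 15). Without a control line these medians were 0.274 to 0.283 and -0.446 to -0.429. Other settings for the runs, all added after seeing the data, gave 9 to 14 runs. Without the runs 5997 genes outside chromosomes 6 and 15 stayed called. The 2 control lines per name, near copies of each other, limit every p-value.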
